A study of Homo sapiens with 6 samples.

Results

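Chromosomes 4, 13 and 18 are the autosomes with the fewest protein-coding genes per Mb, and the H3K4me2 regions that lie on them were examined here in LNCaP cells. The members are all records that the deposited region lists place on these 3 chromosomes. They numbered 9192 with vehicle, 12218 after GSK for 4 h and 12656 after GSK for 24 h. These were 9.19% (95% Wilson interval 9.01 to 9.37) of the 99997 vehicle regions on chromosomes 1 to 22, X and Y, 9.54% (9.38 to 9.70) of 128134 at 4 h and 9.95% (9.79 to 10.1) of 127189 at 24 h. With every other sequence in the lists included, the lists held 101165, 129776 and 128552 records. All intervals given here are Wilson intervals and cover counting error only.

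LNCaP is an androgen-responsive prostate cancer line. All 3 groups were grown in charcoal-stripped serum, from which steroids have been removed, for several days. The control group is labelled vehicle without GSK, and the other groups carry GSK2879552, an inhibitor of the histone demethylase LSD1 (KDM1A), for 4 or 24 h. The labels of both GSK groups also name the androgen DHT, whereas the treatment protocol names GSK2879552 alone, so effects of androgen and of the inhibitor cannot be told apart. Each group had 2 ChIP-seq replicates, but the authors made 1 list from each pair. The lists therefore carry no replicate spread, no test between groups was possible, and every difference below describes 3 lists.

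H3K4me2 is histone H3 dimethylated at lysine 4, a mark found at promoters and enhancers. LSD1 is an enzyme that removes methyl groups from this residue in its mono- or dimethylated form. H3K4me2 regions usually cluster near genes, so chromosomes with few genes offer long intervals in which such regions are rare. The label "gene-poor" was checked against the reference annotation of GRCh38.p14, which was used for gene numbers alone. Chromosome 18 had 3.46 protein-coding genes per Mb of spanned sequence (270 genes), chromosome 13 had 3.52 (338 genes) and chromosome 4 had 4.03 (770 genes). These are the 3 lowest values among the 22 autosomes. The other 19 autosomes together had 7.30 per Mb, and the next lowest, chromosome 8, had 4.89. By the number of genes alone chromosome 4 is not small, ranking as 10 from the lowest, so its place rests on its length of 191 Mb.

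The vehicle list was already sparse on these chromosomes. They held 25.2 vehicle regions per Mb, compared with 36.2 on the other 19 autosomes and 58.2 on the gene-rich chromosomes 17, 19 and 22. Chromosome 13 had 24.0 regions per Mb, chromosome 4 had 24.4 and chromosome 18 had 28.6. Chromosomes 13 and 4 were the sparsest autosomes, and chromosome 18 ranked as 4 from the lowest, after chromosome 6 with 27.4. The regions covered 14.1 kb of each Mb, against 21.9 kb on the other 19 autosomes.

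Region number was higher in both treated lists than with vehicle, and by a larger ratio on these chromosomes together than on the other autosomes together. Chromosome 4 held 4655 regions with vehicle, 6117 at GSK 4 h and 6471 at GSK 24 h. Chromosome 13 held 2305, 3100 and 3244 regions in the same order. Chromosome 18 held 2232, 3001 and 2941 regions, so its number was highest at 4 h whereas the numbers of chromosomes 4 and 13 were highest at 24 h. Over the 3 chromosomes the ratio to vehicle was 1.33 at 4 h (log2 ratio 0.41) and 1.38 at 24 h (log2 ratio 0.46). For the other 19 autosomes the ratios were 1.27 (log2 0.35) and 1.26 (log2 0.33), and for chromosomes 17, 19 and 22 they were 1.16 and 1.11. For chromosomes 3, 5 and 8, with 5.11 coding genes per Mb, they were 1.31 and 1.32. At 24 h, chromosomes 13 and 4 had the 2 highest ratios of the 22 autosomes (log2 0.49 and 0.48) and chromosome 18 ranked as 7 from the highest (0.40). At 4 h, chromosomes 13 and 18 came first (log2 0.43 for each) and chromosome 4 ranked as 7 from the highest (0.39).

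**Figure D1:**
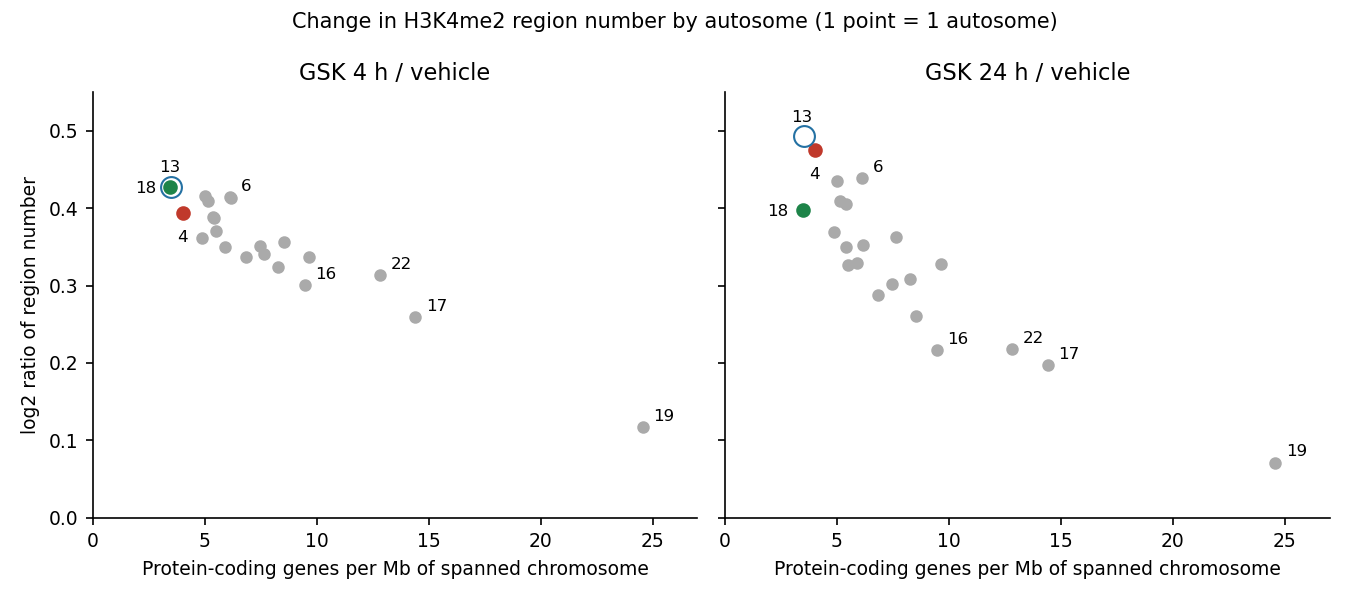
The log2 ratio of region number (GSK over vehicle, y axis) is plotted against protein-coding genes per Mb (x axis) for the 22 autosomes at GSK 4 h and at GSK 24 h. Chromosomes 4 (red), 13 (blue ring) and 18 (green, inside the ring at 4 h) lie at the gene-poor end with log2 ratios from 0.39 to 0.49, whereas chromosome 19, at 24.6 genes per Mb, has the lowest ratio in both panels.

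The 3 chromosomes sit at one end of a gradient that runs over all autosomes. Across the 22 autosomes, the log2 ratio of region number decreased with coding genes per Mb (Spearman's rho = -0.87 at 4 h and -0.85 at 24 h). Without chromosomes 17 and 19, the rho over the remaining 20 autosomes was -0.82 and -0.80. The number of vehicle regions per Mb rose with coding genes per Mb over the same 22 points (rho = 0.86). These coefficients are descriptions without a p-value, since the autosomes of a list share its libraries, depth and calling threshold, and both ratios share the vehicle list.

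Between the treated lists, chromosomes 4 and 13 held more regions at 24 h than at 4 h, while chromosome 18 held fewer. On the log2 scale, the 24 h number over the 4 h number was 0.081 on chromosome 4 and 0.066 on chromosome 13, which are the highest values of the 22 autosomes. It was -0.029 on chromosome 18 and -0.020 on the other 19 autosomes. The length covered over the 3 chromosomes was 5.14 Mb with vehicle, 6.31 Mb at 4 h and 7.03 Mb at 24 h.

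Sparse intervals of the chromosomes held more regions in the treated lists. In 1-Mb windows the median was 21 regions with vehicle, 29 at GSK 4 h and 30 at GSK 24 h, compared with 33, 45 and 44 on the other 19 autosomes. Of 368 windows, 78 (21.2%) held fewer than 10 vehicle regions, 42 (11.4%) held so few at 4 h, and 17 (4.62%) at 24 h. On the other autosomes these shares were 10.4%, 6.47% and 4.83%. These shares include windows without a region in any list, which are mostly on the other autosomes (73 of 2443, against 4 of 368). Without them, 74 of 364 windows (20.3%) held fewer than 10 regions with vehicle, 38 (10.4%) at 4 h and 13 (3.57%) at 24 h, compared with 7.64%, 3.59% and 1.90% on the other autosomes. The sparse windows therefore became fewer on both sets of chromosomes and stayed more frequent on the gene-poor ones. More regions than with vehicle were held by 335 of 368 windows at 4 h (91.0%) and by 354 at 24 h (96.2%). Fewer were held by 18 and 6. The shares with more were 90.8% and 91.3% of all windows, and 94.5% and 95.6% on chromosomes 3, 5 and 8. Windows empty in every list cannot gain but are counted here. They were 110 of 3027 among all windows, against 4 of 368, which lowers the shares of all windows more. Crowded windows also became more frequent, and the number with more than 50 regions was 36 with vehicle (9.78%), 76 at 4 h (20.7%) and 70 at 24 h (19.02%), compared with 24.6%, 41.7% and 40.2% on the other autosomes.

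**Figure D2:**
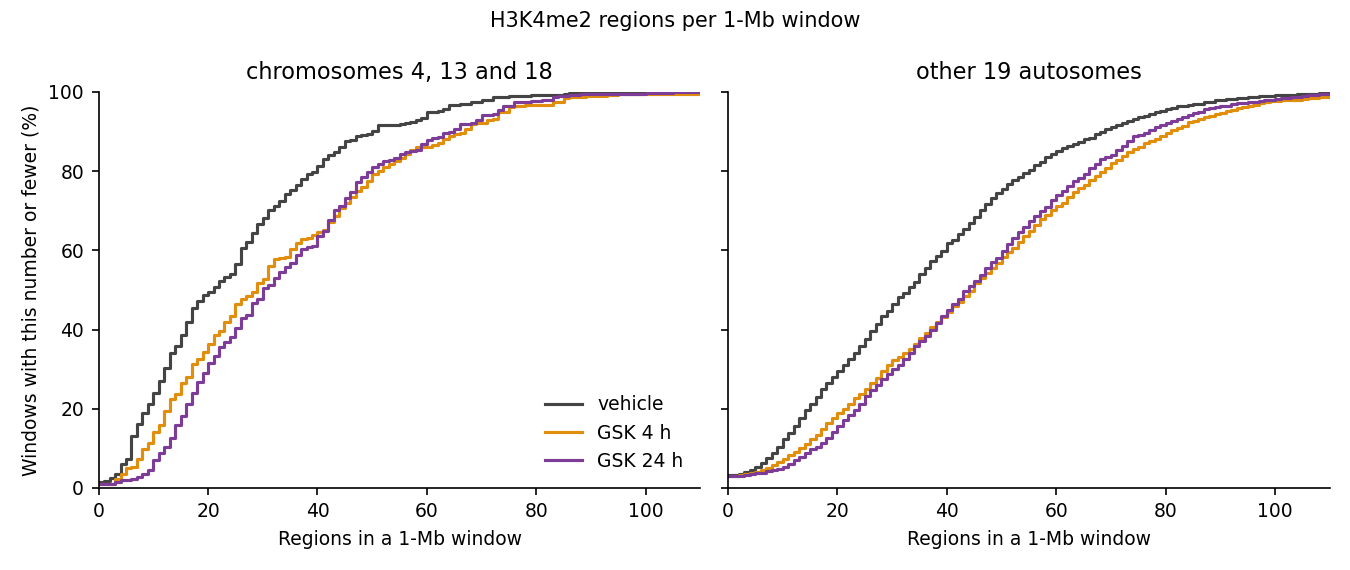
Cumulative distributions show the share of 1-Mb windows (y axis, percent) that hold a given number of regions or fewer (x axis), with 1 line per list, for chromosomes 4, 13 and 18 on the left and the other 19 autosomes on the right. On chromosomes 4, 13 and 18 the GSK 24 h line lies below the vehicle line at the sparse end, where windows with fewer than 10 regions made up 4.62% and 21.2% of the total.

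Windows were next compared with windows of like density, each grouped by the list that did not enter the ratio. In windows with 1 to 10 regions at 4 h, region number at 24 h was 2.17 times the vehicle number on chromosomes 4, 13 and 18 (267 to 580 regions in 48 windows) and 1.90 times on the other autosomes. In windows with 11 to 20 regions the ratios were 1.67 and 1.68, and in those with 21 to 40 regions 1.47 and 1.43. With 41 to 60 regions they were 1.33 and 1.29, and with 61 or more they were 1.19 and 1.15. The ratio thus declined with density on both sets of chromosomes. At the ratios of the other autosomes, the windows of chromosomes 4, 13 and 18 would have held 12259 regions at 24 h, where 12656 were found. The corresponding log2 ratios were 0.42 and 0.46, with 0.33 for the other autosomes as a whole. For 4 h, 12218 regions were found and 12048 would have been held (log2 ratios 0.41 and 0.39).

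For the 4 h ratio the windows were grouped by the 24 h list, so its emptiest windows are not those of the 24 h ratio. A low number at 24 h also leaves out windows that held more regions by then. The 4 h and 24 h ratios of the emptiest windows are therefore not compared. In windows with 1 to 10 regions at 24 h, the 4 h to vehicle ratio was 1.30 on the 3 chromosomes (119 to 155 regions in 22 windows) and 1.56 on the other autosomes. In denser windows the ratios lay between 1.23 and 1.41 on the 3 chromosomes.

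Individual deserts serve as examples and do not measure the size of the change. The longest run of windows with fewer than 10 vehicle regions each lay on chromosome 13, chr13:62000001-73000000, and was picked for its low vehicle number after the values were seen. This run of 11 windows held 53 regions with vehicle, 84 at GSK 4 h and 137 at GSK 24 h, or 4.82, 7.64 and 12.5 regions per Mb. On chromosome 4 the longest run was chr4:134000001-138000000, with 25, 34 and 48 regions. On chromosome 18 it was chr18:15000001-18000000, with 6, 11 and 10 regions. All of them lie before position 15392422, where the long stretch without any region described next begins. This run is therefore no example of a desert that gained regions. A low number was required with vehicle alone, so part of each increase follows from the choice.

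The longest stretches without a region in any list were chr4:49659915-52660688 (3001 kb) and chr18:15392422-18510920 (3118 kb), where the centromeres of these chromosomes lie. Outside them, the longest were chr4:179147997-179695479 (547 kb), chr13:54702728-55146366 (444 kb), chr13:68920485-69355029 (435 kb) and chr18:65519046-65817844 (299 kb). Such stretches were not more frequent here than elsewhere. Those of over 500 kb numbered 0.82 per 100 Mb, compared with 1.19 on the other autosomes. They made up 1.83% of the spanned length, compared with 4.03%.

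The densest 1-Mb windows with vehicle were chr18:55000001-56000000 (101 regions with vehicle, 114 at GSK 4 h and 105 at GSK 24 h), chr4:77000001-78000000 (86, 112 and 100) and chr13:24000001-25000000 (70, 83 and 88). They were chosen for a high vehicle number, which by itself lowers the ratio to vehicle, so they are not compared with the sparse runs. The densest windows were also taken within each list by itself, so they need not be the same windows. The 37 densest of a list, or 10% of the total, held 25.7% of its regions with vehicle, 23.6% at 4 h and 21.8% at 24 h. The densest 10% of windows of each list on the other autosomes held 22.8%, 20.5% and 19.8%.

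Change in region number was uneven along the chromosomes. The first and last 5 Mb were counted from the first and last region of any list. They need not be the ends of the chromosome itself, as on chromosome 13, where the spanned length was 96.1 Mb. The first 5 Mb of chromosome 4 held 64 vehicle regions per Mb, with 320 regions with vehicle, 356 at 4 h and 343 at 24 h (log2 ratios 0.15 and 0.10). Its last 5 Mb held 162, 230 and 211 regions (0.51 and 0.38). Its interior, between the first and the last 5 Mb, held 23.1 per Mb, and the number went from 4173 to 5531 and 5917 (log2 ratios 0.41 and 0.50). On chromosome 13 the interior went from 1885 to 2545 and 2724 regions (0.43 and 0.53), the first 5 Mb from 181 to 209 and 224 (0.21 and 0.31), and the last 5 Mb from 239 to 346 and 296 (0.53 and 0.31). On chromosome 18 the interior went from 1829 to 2495 and 2478 regions (0.45 and 0.44), the first 5 Mb from 183 to 228 and 226 (0.32 and 0.30), and the last 5 Mb from 220 to 278 and 237 (0.34 and 0.11). In each of the 3 chromosomes, the log2 ratio at 24 h was higher in the interior than in the first or the last 5 Mb. At 4 h the last 5 Mb of chromosomes 4 and 13 exceeded the interior.

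Neighbouring regions were far apart. The median distance from a region to the next was 16.5 kb with vehicle, 12.7 kb at 4 h and 13.6 kb at 24 h, compared with 12.1, 9.95 and 10.6 kb on the other autosomes. Isolated regions, more than 100 kb from any other of their list, numbered 250 (2.72%) with vehicle, 168 (1.38%) at 4 h and 129 (1.02%) at 24 h. The shares on the other autosomes were 1.03%, 0.47% and 0.37%.

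Fewer of the treated regions on these chromosomes than of the whole lists coincided with vehicle regions, counting an overlap of at least 1 bp. Of the GSK 4 h regions, 63.1% (62.2 to 63.9) overlapped a vehicle region, compared with 67.0% of the whole list. Of the GSK 24 h regions, 62.4% (61.5 to 63.2) did so, compared with 68.0%. On chromosomes 3, 5 and 8 the shares were 64.9% at 4 h and 65.0% at 24 h. At 4 h, chromosomes 6 (63.35%) and 21 (63.6%) lay near chromosomes 4 (63.3%) and 13 (63.5%). Of the vehicle regions, 82.4% (81.6 to 83.1) were found at 4 h against 84.3% for all, and chromosomes 4, 18 and 13 ranked as 1, 2 and 4 from the lowest of the autosomes. The share was 85.7% (84.9 to 86.4) at 24 h against 86.0%.

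The treated lists also shared less with each other at 24 h. Of the 4 h regions, 77.0% (76.2 to 77.7) were found at 24 h, compared with 78.2% of the whole list. Of the 24 h regions, 72.9% (72.1 to 73.7) were found at 4 h, compared with 77.7%. By chromosome the latter share was 71.6% on chromosome 4, 72.1% on chromosome 13 and 76.7% on chromosome 18, so chromosome 18 lay near the whole list and the other two below it.

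Overlapping records of all lists were then joined, which gave 15280 union regions on the 3 chromosomes. Of these, 6571 (43.0%) were in all 3 lists, compared with 47.9% of all union regions. Regions found at 24 h alone numbered 2671, or 17.5% (16.9 to 18.1) compared with 14.3%. It made up 18.2% on chromosome 4, 18.5% on chromosome 13 and 14.9% on chromosome 18. Regions at 4 h alone numbered 2273 (14.9%, compared with 14.5%), and those in both GSK lists but not with vehicle numbered 1878 (12.3%, compared with 11.0%). Regions with vehicle alone numbered 791 (5.18%, compared with 5.45%). A further 427 were shared by vehicle and 4 h alone (2.79%, compared with 2.97%), and 669 by vehicle and 24 h alone (4.38%, compared with 3.84%).

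Regions absent from the vehicle list lay far from vehicle regions. The 4764 regions of the 24 h list without a vehicle counterpart had a median distance of 11.4 kb to the nearest vehicle region, compared with 7.68 kb on the other autosomes. Of these, 251 (5.27%) were more than 100 kb away, compared with 2.37% elsewhere. The share was 7.62% on chromosome 13, 5.45% on chromosome 4 and 2.15% on chromosome 18. For the 4511 such regions at 4 h, the median was 7.94 kb (6.19 kb on the other autosomes) and 158 (3.50%) were more than 100 kb away, compared with 1.60%. A lower density of vehicle regions lengthens these distances by itself. The absent regions were weak, with a median of 13 fragments at the summit in both treated lists, against 25 for regions shared with vehicle.

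The strongest regions were fewer in the treated lists, although regions of moderate strength were more numerous. The −log10 q-value, which the peak caller assigns to each region, was at least 10 in 3788 vehicle regions, 4829 regions at 4 h and 4605 at 24 h. Over the whole lists the numbers were 45490, 56888 and 52815. At a value of at least 30 the numbers on the 3 chromosomes were 1110, 998 and 609, and at 50 they were 713, 279 and 118. Over the whole lists they were 14857, 14362 and 9621 at 30, and 9293, 4430 and 2091 at 50. At 100 or more the 3 chromosomes held 421 vehicle regions but 4 regions in each treated list. This loss ran through the whole lists, which held 5564, 128 and 70 such regions. The 3 chromosomes made up 7.6%, 3.1% and 5.7% of them. On chromosome 4 the numbers at 100 were 207, 3 and 3, on chromosome 18 they were 108, 1 and 1, and on chromosome 13 they were 106, 0 and 0. At a threshold of 50 the decline was steeper than on the other 19 autosomes together. The log2 ratios were -1.35 at 4 h and -2.60 at 24 h, compared with -1.02 and -2.10. The q-values also depend on library depth, which the lists do not give.

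**Figure D3:**
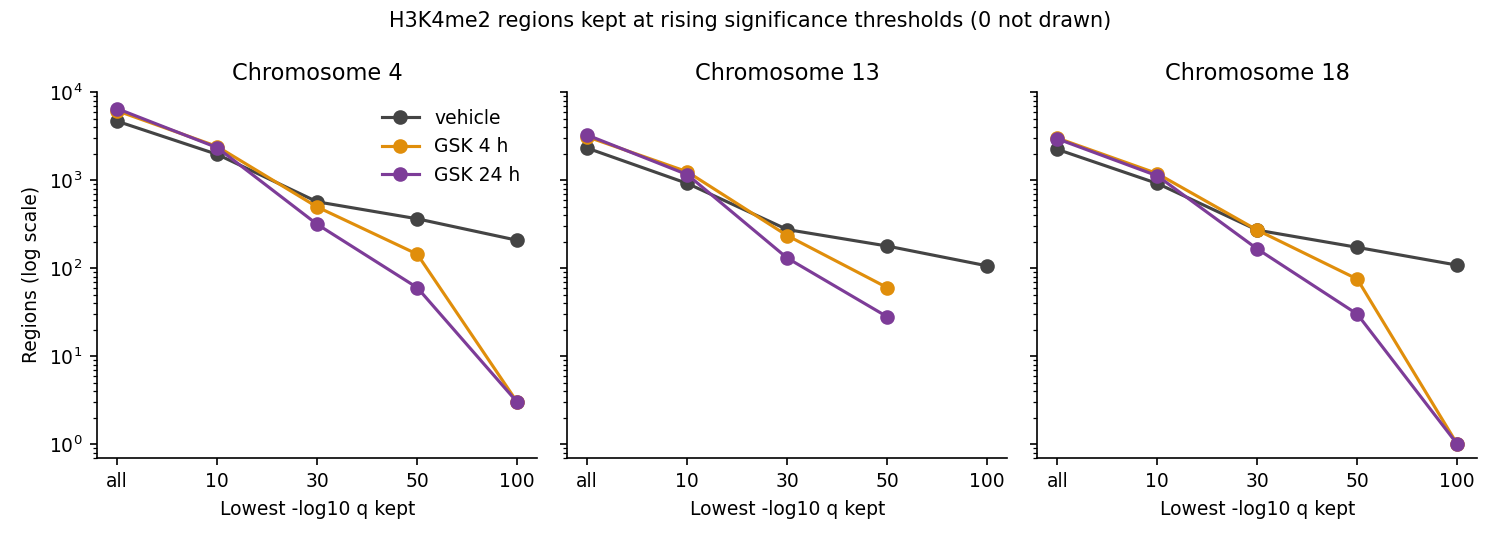
The number of regions on each chromosome (y axis, log scale) is plotted against the lowest −log10 q-value kept (x axis, from all regions to 100), with 1 line per list. The treated lines start above the vehicle line and cross below it at or before 50 on each chromosome, and chromosome 13 has no treated region at 100 or more.

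To set the lists side by side, the fragment number at each summit was recovered from the fold enrichment and the p-value, and divided by the lowest background level of the same list. This height was 9.60 at the median with vehicle, 9.56 at 4 h and 9.16 at 24 h. The medians on the other autosomes were 11.04, 11.7 and 11.2. Median fold enrichment differed less, at 4.999, 4.86 and 4.72 compared with 4.95, 4.86 and 4.72. The regions were also shorter, with medians of 441, 397 and 462 bp compared with 480, 444 and 499 bp. A larger share of summits had no local background above the genome-wide level, namely 36.3%, 38.8% and 34.1% compared with 25.6%, 27.4% and 24.1%. With vehicle, chromosomes 13, 18 and 4 had the 3 highest such shares of the autosomes. Chromosome 6, with 6.14 coding genes per Mb, lay close to the 3 chromosomes in all of these. Its median heights were 9.12, 9.56 and 9.16, and its median lengths 439, 411.5 and 452 bp. Its shares of such summits were 35.3%, 38.4% and 32.5%. Low heights and short regions were thus not particular to the 3 chromosomes.

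Tall summits were rare in both treated lists. Summits with a height of at least 64 numbered 548 with vehicle (5.96%, 5.50 to 6.46), 83 at 4 h (0.679%) and 28 at 24 h (0.221%). Over the whole lists the shares were 7.09%, 1.56% and 0.413%. On chromosome 4 there were 278, 51 and 24 of these summits, on chromosome 18 there were 142, 25 and 4, and on chromosome 13 there were 128, 7 and 0. The count of 0 among 3244 regions has an upper bound of 0.118% (Wilson). Such a loss was not particular to these chromosomes. On chromosome 6 there were 249, 21 and 2 of these summits, and on gene-rich chromosome 22 there were 188, 13 and 3. By share at 24 h, chromosome 4 ranked as 12 from the lowest of the 22 autosomes. The highest summit of chromosome 13 at 24 h was 61.5, the lowest maximum of the 22 autosomes, while those of chromosomes 4 and 18 reached 90.03 and 92.1.

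**Figure D4:**
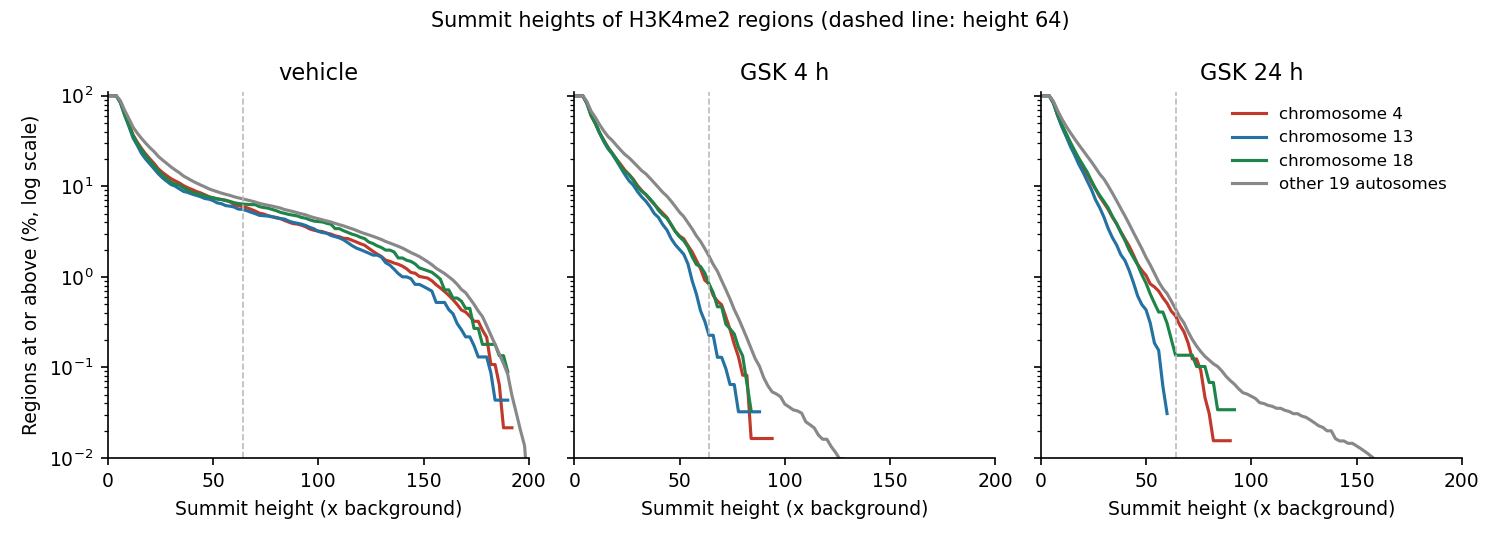
The share of regions (y axis, percent, log scale) with a summit height at or above a given value (x axis, multiples of background) is shown for the 3 lists, with 1 line each for chromosomes 4, 13 and 18 and a grey line for the other 19 autosomes. All lines fall steeply in the treated lists, and at 24 h the chromosome 13 line (blue) ends first, at 61.5.

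The sites of these summits were still called, at lower heights. Of the 548 tall vehicle summits, 542 (98.9%) were overlapped by a 4 h region and 529 (96.5%) by a 24 h region. Their median height was 107 with vehicle, 47.3 at 4 h and 32.6 at 24 h, compared with 112, 52.6 and 35.6 on the other autosomes. A height of at least 64 was kept by 72 (13.1%) at 4 h and 21 (3.83%) at 24 h, against 23.9% and 6.36% on the other autosomes. On chromosome 13, 6 of 128 (4.69%) were kept at 4 h and none at 24 h. Since these sites were chosen by their vehicle height, the comparison leans towards a fall. Among all overlapped vehicle regions of the 3 chromosomes, tall or not, 580 of 7571 (7.66%) met at least 2 regions at 4 h and 527 of 7874 (6.69%) did so at 24 h, compared with 8.25% and 7.30% over the whole list.

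Heights were then compared for 4924 regions matched 1 to 1, which leaves out sites not called in any one of the 3 lists. They were ranked by height in the list that did not enter the ratio and split into 10 equal classes over the genome, called class 1 (weakest) to class 10 (strongest). Over all matched regions the median log2 ratio of height at 24 h to vehicle was 0.18 (0.15 on the other autosomes). In class 1, by height at 4 h, it was 0.26 (643 regions). In class 10 it was -0.99 (306 regions), and 78.1% of these were lower than with vehicle. On the other autosomes class 10 had a median of -0.48, with 74.3% lower, and on chromosomes 3, 5 and 8, it had -0.79, with 78.0% lower. By chromosome the medians were -0.82 on chromosome 4 (176 regions), -1.08 on chromosome 18 (68 regions) and -1.38 on chromosome 13 (62 regions, 88.7% lower). The middle 50% of class 10 on the other autosomes spanned -1.67 to 0.0091, and the medians of all 3 chromosomes lay within it. The contrast depended on the measure, since with the deposited fold enrichment the class 10 medians were -0.22 on the 3 chromosomes, -0.19 on the other autosomes, -0.26 on chromosomes 3, 5 and 8 and -0.15 on chromosome 4.

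At 4 h the difference was smaller. Class 10, by height at 24 h, had a median log2 ratio to vehicle of -0.23 (284 regions, 60.9% lower), compared with -0.016 on the other autosomes (51.0% lower). The 3 chromosomes differed among themselves, with -0.58 on chromosome 13 (48 regions), -0.28 on chromosome 4 (175 regions) and 0.038 on chromosome 18 (61 regions). With the deposited fold enrichment, the class 10 medians at 4 h were -0.11 on the 3 chromosomes and -0.12 on the other autosomes. On chromosomes 3, 5 and 8 the median was -0.15. The contrast at 4 h was thus seen with height alone. Between 4 and 24 h, ranked by vehicle height, the median log2 ratio of class 10 was -0.51, close to the -0.52 of the other autosomes.

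**Figure D5:**
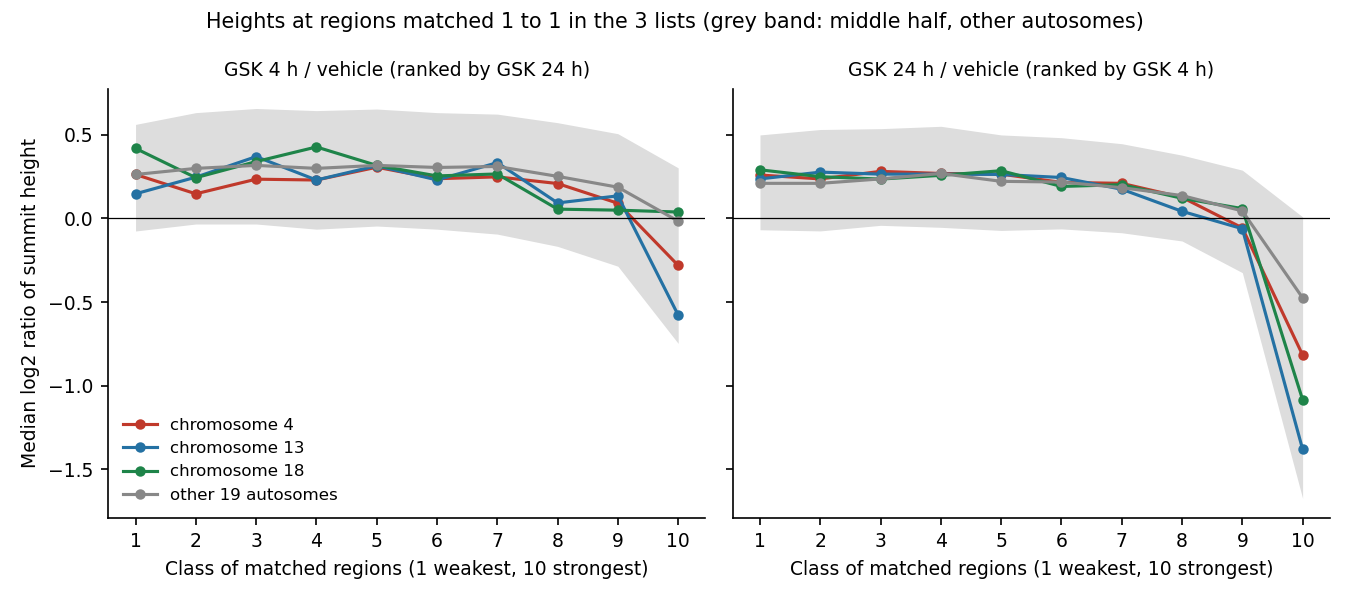
The median log2 ratio of summit height (y axis) is plotted by class of strength (x axis, 1 weakest, 10 strongest) for regions matched 1 to 1 in the 3 lists, with GSK 4 h over vehicle on the left and GSK 24 h over vehicle on the right. Class 1 lies above 0 in both panels, and in class 10 at 24 h chromosome 13 (blue, -1.38), chromosome 18 (green, -1.08) and chromosome 4 (red, -0.82) lie below the other 19 autosomes (grey, -0.48), whose middle 50% is the grey band.

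Single regions illustrate these changes in hg19 coordinates. No hg19 gene annotation or genome sequence was used here, so genes, exons and sequences are not given for them. The vehicle region with the highest −log10 q-value on chromosome 13 was chr13:36704695-36705785, with 397 fragments at the summit with vehicle, 135 at GSK 4 h and 85 at GSK 24 h. On chromosome 4 it was chr4:74903861-74904709, with 321, 102 and 78 fragments. On chromosome 18 it was chr18:12407533-12408704, with 384, 118 and 81 fragments, and it met 2 separate regions at 24 h. In all 3 cases the region stayed high in its list by fold enrichment, the lowest percentile being 84.1, at 24 h on chromosome 18.

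The largest falls in height among matched regions took regions from near the top of the vehicle list to ordinary strength. At chr13:109147557-109148696 the summit had 141 fragments with vehicle, 20 at 4 h and 11 at 24 h, a log2 ratio of height of -3.60 at 24 h. At chr4:121842857-121844197 it had 281, 60 and 24 fragments (log2 ratio -3.47), and at chr18:2906232-2907392 it had 286, 69 and 27 (log2 ratio -3.32). All 3 had already lost most of their height at 4 h, with log2 ratios of -2.67, -2.08 and -1.90 in the same order.

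The largest rises were smaller in number of fragments. At chr4:70176327-70176712 the summit had 16 fragments with vehicle, 20 at 4 h and 52 at 24 h (log2 ratio of height 1.78 at 24 h). At chr18:13042842-13043433 it had 11, 16 and 32 (1.62), and at chr13:53383432-53384109 it had 13, 29 and 35 (1.51). On chromosome 13 most of the rise was present at 4 h, whereas on chromosome 4 most of it came between 4 and 24 h. These are the extremes of 4924 matched regions and were picked by their values.

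Among the regions present with vehicle alone, the strongest of each chromosome was picked. The strongest by fold enrichment was chr13:53174169-53174771, with 67 fragments and a 15.6-fold enrichment, and the nearest treated regions lay 8256 bp away at 4 h and 15656 bp away at 24 h. On chromosome 18 it was chr18:53447326-53447854 (39 fragments, 12.97-fold), and on chromosome 4 chr4:154680792-154681345 (30 fragments, 10.1-fold). Regions present in both treated lists but not with vehicle were chosen by the same measure. At chr4:71121716-71122249 the fold enrichment was 7.98 at 4 h and 10.8 at 24 h, at chr13:97578388-97579002 it was 7.93 and 7.63, and at chr18:36986465-36987220 it was 7.63 and 7.08. The nearest vehicle regions were 38237, 57423 and 27962 bp away.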

How the data were processed

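H3K4me2 ChIP-seq of 6 LNCaP samples was analysed from 3 region lists, 1 per group, each made by the authors from both replicates. The submitters' processing notes name BWA 0.7.2-r351, SAMtools 0.1.18, MACS2 2.0.10.20131216 and hg19. Per the file contents, the deposited values are a display score, a fold enrichment (a ratio over local background), a −log10 p-value and a −log10 q-value, with no header and no scaling between lists. Depth is not given. The lowest background was 2.08 fragments per position with vehicle, 1.88 at GSK 4 h and 1.97 at GSK 24 h.

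Members were the records on chromosomes 4, 13 and 18. These chromosomes, and the thresholds and regions named, were chosen with earlier results of these data known. Fragment numbers were recovered by solving fold enrichment and p-value together under a Poisson model, and came out whole within 0.001 for 100% of members in each list. Overlap meant at least 1 bp. Spanned length runs from the first to the last region of a chromosome over all lists. Windows were 1 Mb. The recovery and the overlap step were tested on simulated data. Named regions were, per chromosome, the highest vehicle −log10 q-value, the highest fold percentile with vehicle alone or in both GSK lists alone, the largest fall and rise in height at 24 h among matched regions, the densest vehicle window and the 2 longest stretches without a region. Alternatives were a −log10 q-value threshold, merging within 1 kb, a 50% overlap, lists of equal length and fold enrichment in place of height. No statistical test was run, because each group has 1 list.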

Additional observations from a re-analysis of the deposited data

Results flagged for a closer look

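The lists also hold regions on haplotype and unplaced sequences of chromosome 4, which no comparison above uses. There were 36 such regions with vehicle, 53 at GSK 4 h and 44 at GSK 24 h, on 3 sequences. Both treated numbers lay above the control. The whole lists were also longer, at 1.28 and 1.27 times the vehicle number on chromosomes 1 to 22, X and Y. A higher treated number is thus not particular to these few regions.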

How the results depend on the processing

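No paired analysis was possible because the replicates of a group share 1 list, and for the same reason no replicate could be left out. The gain in number held at a −log10 q-value of at least 10 (3788, 4829 and 4605 regions with vehicle, at GSK 4 h and at GSK 24 h, log2 ratios 0.35 and 0.28) and after merging within 1 kb (0.34 at 4 h). It reversed at 30 (-0.15 and -0.87) and, chosen after seeing the data, at 50 (-1.35 and -2.60). The share of each list was 8.33%, 8.49% and 8.72% at 10, 9.44%, 9.74% and 10.18% after merging, and 9.24% and 9.59% for the treated lists at equal length, where the 4 h share lay within the interval of the vehicle share and chromosome 4 went from 4.66% to 4.59% at 4 h. The order of the lists turned round at 30 (7.47%, 6.95% and 6.33%) and at 50 (7.67%, 6.30% and 5.64%), shares also added after seeing the data. Sharing is given in the order vehicle in 4 h, vehicle in 24 h, 4 h in vehicle, 24 h in vehicle, 4 h in 24 h and 24 h in 4 h. It was 73.2%, 78.3%, 53.9%, 51.4%, 68.2% and 59.7% with a 50% overlap, 80.4%, 79.2%, 65.6%, 67.5%, 71.9% and 75.9% at 10, and 74.96%, 78.4%, 74.4%, 73.9%, 77.8% and 74.0% at equal length. At 10 the median distances were 42.2, 33.0 and 36.3 kb and the median fold enrichments 7.13, 6.94 and 6.54. With fold enrichment in place of height, the median log2 ratio of matched regions in class 10 was -0.22 at 24 h and -0.11 at 4 h. Over all matched regions it was -0.0050 at 24 h (reversed) and 0.090 at 4 h. Ranked by p-value instead of fold enrichment, an alternative added later, the regions named for a list or lists alone had percentiles of 66.0 to 91.8 instead of 85.7 to 98.8. Unknown depth limits every comparison of numbers and q-values between lists.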
